A study of Mus musculus with 6 samples.

Results

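The genes described here are 8 components of the pre-B cell receptor or its closest partners, namely Igll1, Vpreb1, Vpreb2, Vpreb3, Cd79a, Cd79b, Ighm and Blnk. They are a list of gene names, and no threshold on a measured value was part of it. All 8 were among the 37315 genes of the abundance table, and 7 were among the 19402 genes of the allele table. The alleles of Ighm were not analysed here.

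The series holds RNA-seq of 3 clonal lines of immortalised mouse B cells, Abl.2, Abl.3 and Abl.4. Every line came from an F1 cross of the strains 129S1/SvImJ and CAST/EiJ, so that the RNA from the mother's and the father's chromosome can be told apart at positions where the strains differ. Within a line, each parent's allele is also the allele of a strain, so effects of parent and strain cannot be told apart. Per the labels, Abl.3 is male and the other lines are female. All cells were controls, kept with 1% DMSO (a solvent) and taken on day 2, and no group carried another agent or an engineered allele. Live cells were collected over a density gradient. Each line is 1 clone with 2 libraries, which the labels call replicates of the library preparation. The p-values below therefore measure the spread between library preparations and not between cultures or animals, and a difference between lines is a difference between single clones.

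The pre-B cell receptor is the checkpoint receptor of early B cells. A newly rearranged mu heavy chain, encoded by Ighm, pairs with a surrogate light chain made of Igll1 and a VpreB protein before any true light chain exists. The complex signals through the Cd79a and Cd79b chains, whose tyrosine motifs recruit the kinase Syk, and Syk passes the signal on through the adaptor Blnk. Vpreb3 resembles the VpreB proteins in sequence but stays inside the cell.

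Vpreb1 and Vpreb2 are near copies of each other, which bears on every value given for them. Their coding sequences in GENCODE M21 (GRCm38) were 426 bases each and differed at 9 positions, an identity of 97.9%. The longest run without a difference was 196 bases. Of the 50-base words of the Vpreb1 transcript, 32.5% also occurred in that of Vpreb2, and 32.8% the other way round. Bases 79 to 378 of both coding sequences, read 5′ to 3′, are shown to let a reader see how little separates them. Capitals mark the 6 positions in the stretch where they differ.
Vpreb1: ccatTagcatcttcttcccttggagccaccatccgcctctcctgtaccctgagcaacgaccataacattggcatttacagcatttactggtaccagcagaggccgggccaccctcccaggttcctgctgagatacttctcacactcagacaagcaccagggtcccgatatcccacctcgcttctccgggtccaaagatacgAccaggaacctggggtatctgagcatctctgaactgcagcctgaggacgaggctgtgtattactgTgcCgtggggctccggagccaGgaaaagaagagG
Vpreb2: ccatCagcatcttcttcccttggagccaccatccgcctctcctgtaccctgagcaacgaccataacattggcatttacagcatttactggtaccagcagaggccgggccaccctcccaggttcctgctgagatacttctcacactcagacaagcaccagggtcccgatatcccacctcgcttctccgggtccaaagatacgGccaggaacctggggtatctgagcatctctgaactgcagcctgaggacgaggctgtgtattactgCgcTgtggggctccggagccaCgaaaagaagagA
The coding sequence of Vpreb3 was 50% identical to that of Vpreb1, with no 50-base word in common. How the authors treated reads that match both Vpreb1 and Vpreb2 is not given in the sources used here, so the split between the 2 genes is uncertain while their sum is less so.

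In the main fit, allelic balance set a single line apart from both others, which did not differ detectably, for Igll1, Vpreb1, Vpreb3 and Blnk. Of these, Igll1 and Vpreb3 had the largest log2 differences. The 250 bases before their RefSeq starts (GRCm38.p6) are shown for that reason. They come from the reference assembly and from neither parental strain, so they show no difference between alleles or clones. Capitals mark the E-box letters CANNTG, searched on both strands, where matches may overlap.
Igll1, chr16:16863986-16864235, minus strand: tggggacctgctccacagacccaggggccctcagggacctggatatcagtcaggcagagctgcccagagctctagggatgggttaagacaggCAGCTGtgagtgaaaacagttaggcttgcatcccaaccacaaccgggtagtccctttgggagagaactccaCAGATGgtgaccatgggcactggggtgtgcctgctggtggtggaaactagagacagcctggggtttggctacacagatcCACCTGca
Vpreb3, chr10:75948050-75948299, plus strand: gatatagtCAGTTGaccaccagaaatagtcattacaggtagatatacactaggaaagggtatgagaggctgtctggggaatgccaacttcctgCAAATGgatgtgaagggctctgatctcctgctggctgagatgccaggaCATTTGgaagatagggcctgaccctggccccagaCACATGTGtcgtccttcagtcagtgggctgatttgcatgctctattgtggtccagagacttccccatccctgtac
Igll1 held 3 such matches and Vpreb3 held 5. Of 32851 RefSeq promoters of the same length (300 bases, with 50 after the start), 66.2% held at least 1, and the median was 1. The share with 3 or more is not given here. The ETS core GGAA occurred in each of the 6 members with a promoter entry, against 93.4% of all promoters. A match of letters is a description and not a binding site.

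Depth and cell identity were as follows. Allelic counts summed to between 18362319 and 26881211 per library. TPM, the length-scaled abundance unit of the other table, keep no depth, so the depth behind them is unknown. The 5 B-lineage markers outside the members were Pax5, Ebf1, Blk, Cd24a and Ptprc, and none was absent. They summed to between 1093 and 1184 TPM in Abl.2, 642 and 678.5 TPM in Abl.3, and 1437 and 1583 TPM in Abl.4. That order was also seen for Blnk, Cd79b and Vpreb3. Cd24a alone made up most of each sum, and not every marker followed the order. Blk alone among the markers was lowest in Abl.2 and not in Abl.3. Pax5 alone was highest in Abl.2, at 246 and 207 TPM, against 156 and 165 TPM in Abl.4. All 7 T-cell markers, all 6 erythroid markers and all 4 stromal markers stayed under 1 TPM in every library. Of 7 myeloid markers 5 stayed under 1 TPM, including Cd14 and Adgre1 at 0, while Lyz2 reached 158 and 193 TPM in Abl.2 against 70.8 to 96.5 TPM elsewhere. Klrb1c, from the NK-cell list, was also highest in Abl.2, at 14.1 and 16.1 TPM, with Ncr1 at 0. Itgam, from the myeloid list, stood at 6.89 and 6.74 TPM in Abl.4 and under 1 TPM elsewhere. The 3 plasma-cell markers summed to between 24.9 and 28.1 TPM in Abl.2, 8.42 and 9.23 TPM in Abl.3, and 21.9 and 22.4 TPM in Abl.4, lowest in Abl.3 as was Ighm. The part of these markers in any difference between the lines was not tested. In bulk RNA, fewer cells that express a gene and less RNA per cell cannot be told apart.

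All 8 genes were strongly expressed in every line. Vpreb3 ranked 3 to 7 among all genes by TPM, depending on the library. Igll1 ranked 8 to 16 and Ighm 8 to 28. Cd79a, Vpreb1, Vpreb2 and Cd79b lay between ranks 19 and 67. Blnk, an adaptor and not a receptor chain, was lower and ranked 253 to 632. Together the 8 genes made up 2.18% to 2.65% of all TPM in a library, with Abl.3 lowest at 2.18% and 2.36%. Between the lowest and the highest library, the level of a member differed by between 1.31-fold (Vpreb1) and 2.11-fold (Blnk).

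**Figure D1:**
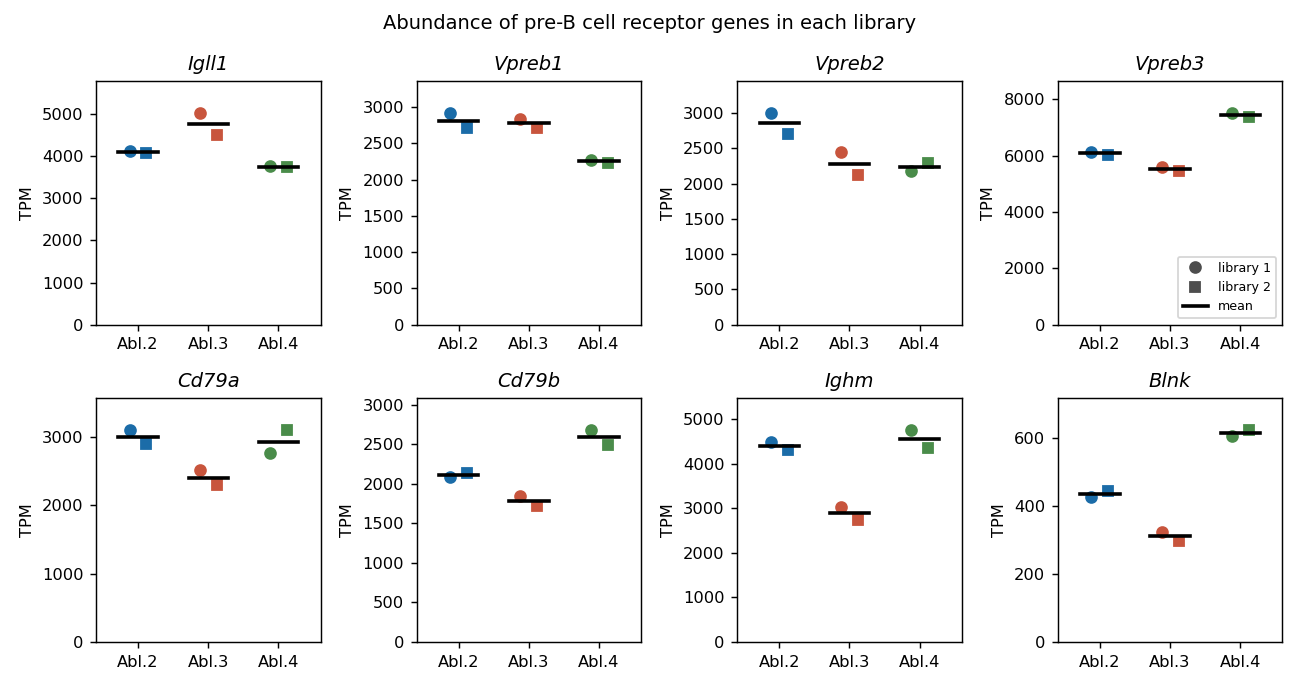
Abundance in TPM (vertical axes, starting at 0) of the 8 genes in each library of the 3 lines, with circles for library 1, squares for library 2 and a bar at the mean. Blnk, Cd79b and Vpreb3 were lowest in Abl.3 and highest in Abl.4, and Igll1 was ordered the other way round.

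Igll1 encodes the constant-like part of the surrogate light chain and lies on chromosome 16 (16860671 to 16863985). It stood at 4125 and 4082 TPM in Abl.2, 5027 and 4508.5 TPM in Abl.3, and 3755 and 3731 TPM in Abl.4. The 3 lines did not overlap, with Abl.3 highest and Abl.4 lowest. On the log2(TPM + 1) scale the level in Abl.3 exceeded that in Abl.4 by 0.35 ± 0.082 (SE; limma adjusted p = 0.018), a 1.27-fold difference. The difference of Abl.2 from Abl.3 was -0.21 (95% interval -0.41 to -0.02), which did not pass after adjustment (limma adjusted p = 0.082). It passed with a replicate block (limma adjusted p = 0.036) and with median-ratio scaling, at -0.33 (limma adjusted p = 0.024). Abl.2 and Abl.4 differed by 0.13 (-0.06 to 0.33; limma adjusted p = 0.26). On summed allelic counts (the maternal plus the paternal counts of the allele table) that difference turned, to -0.27, and the one between Abl.3 and Abl.4 became 0.22 (edgeR adjusted p = 0.033 and 0.078).

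Vpreb1 and Vpreb2 encode the variable-like part of the surrogate light chain and lie on the same chromosome (16868403 to 16870843 and 17980428 to 17981273). Vpreb1 stood at 2923 and 2710.4 TPM in Abl.2, 2839 and 2718 TPM in Abl.3, and 2277 and 2234 TPM in Abl.4. Only Abl.4 was set apart, below both other lines. Vpreb2 stood at 3002 and 2704 TPM in Abl.2, 2446 and 2121 TPM in Abl.3, and 2175 and 2297 TPM in Abl.4. Here Abl.2 was the line set apart, above the other lines, which overlapped. Vpreb1 was higher in Abl.2 than in Abl.4 by 0.32 ± 0.076 and higher in Abl.3 than in Abl.4 by 0.30 ± 0.076 (limma adjusted p = 0.020 and 0.023). The latter became 0.25 with quantile normalisation and no longer passed (limma adjusted p = 0.054). On summed allelic counts the former turned, to -0.051, and the latter became 0.21, neither passing (edgeR adjusted p = 0.67 and 0.078). Vpreb2 was higher in Abl.2 than in Abl.3 by 0.32 ± 0.10 and than in Abl.4 by 0.35 ± 0.10 (limma adjusted p = 0.043 and 0.038). These Vpreb2 differences depended on the measure. With median-ratio scaling the first became 0.21 and did not pass (limma adjusted p = 0.14), and on summed allelic counts both turned, to -0.36 and -0.20 (edgeR adjusted p = 0.016 and 0.16). The remaining differences were small, 0.02 (95% interval -0.16 to 0.20) for Vpreb1 between Abl.2 and Abl.3, and 0.03 (-0.21 to 0.27) for Vpreb2 between Abl.3 and Abl.4. Vpreb1 overlaps Top3b, a topoisomerase gene on the opposite strand that stood at 134 to 239 TPM and was highest in Abl.2. Whether the counting used strand is not given in the sources used here.

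The balance within the surrogate light chain was taken from the TPM. The ratio of Igll1 to the sum of Vpreb1 and Vpreb2 depends less on how reads are split between the near copies than either gene does. It was lowest in Abl.2 at 0.725 ± 0.041 and highest in Abl.3 at 0.941 ± 0.014, with Abl.4 at 0.833 ± 0.014 (SD, n = 2). The 3 lines did not overlap in this ratio of TPM. As a ratio of summed allelic counts, whose scale also depends on the SNPs of each gene, it was 0.332 and 0.328 in Abl.2, 0.382 and 0.370 in Abl.3, and 0.356 and 0.379 in Abl.4, so that Abl.2 was still lowest and the other lines overlapped. The ratio of Vpreb1 to Vpreb2 was near 1 in Abl.2 (0.988 ± 0.020) and Abl.4 (1.01 ± 0.052) and was 1.22 ± 0.086 in Abl.3. On summed allelic counts Abl.3 did not stand apart, the ratio being 1.04 and 1.18 in Abl.2, 1.03 and 1.03 in Abl.3, and 0.990 and 1.01 in Abl.4. The ratios are a description, and their differences between lines were not tested.

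Vpreb3, on chromosome 10 (75943057 to 75949657), was the most abundant member in each library. It stood at 6143 and 6024 TPM in Abl.2, 5599 and 5454 TPM in Abl.3, and 7519 and 7374 TPM in Abl.4. The lines did not overlap and Abl.4 was highest. The level fell short of Abl.4 in Abl.2 (-0.29 ± 0.073, limma adjusted p = 0.024) and in Abl.3 (-0.43 ± 0.073, limma adjusted p = 0.0056). Between Abl.2 and Abl.3 the difference was 0.14 (95% interval -0.04 to 0.31), which did not pass. On summed allelic counts Abl.3 was highest, at 2992 and 3170 CPM (counts scaled to the library's allelic total) against 2904 and 2880 in Abl.4, and Abl.2 was lowest, at 2677 and 2319. The difference between Abl.3 and Abl.4 then turned, to 0.10, that between Abl.2 and Abl.4 became -0.21, and that between Abl.2 and Abl.3 turned to a call at -0.31 (edgeR adjusted p = 0.44, 0.11 and 0.024). The pseudogene Gm16221, on the opposite strand within the gene, was at 0 to 7.38 TPM.

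Ighm, the constant region of the mu heavy chain on chromosome 12 (113418558 to 113422730), separated Abl.3 from the other lines. It stood at 4497 and 4319 TPM in Abl.2, 3031 and 2743 TPM in Abl.3, and 4757 and 4354 TPM in Abl.4. Both libraries of Abl.3 were below all others, and Abl.2 and Abl.4 overlapped. The gene was 1.53-fold higher in Abl.2 than in Abl.3 (0.61 ± 0.089, limma adjusted p = 0.0026) and 1.58-fold lower in Abl.3 than in Abl.4 (-0.66 ± 0.089, limma adjusted p = 0.0023). The difference between Abl.2 and Abl.4 was -0.05 (95% interval -0.26 to 0.17).

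Cd79a and Cd79b, the signalling chains, were also lowest in Abl.3. Cd79a (chromosome 7, 24897381 to 24902197) stood at 3098 and 2899 TPM in Abl.2, 2514 and 2291 TPM in Abl.3, and 2757 and 3094 TPM in Abl.4. Cd79b (chromosome 11, 106311341 to 106314762) stood at 2089.6 and 2131 TPM in Abl.2, 1840.0 and 1714 TPM in Abl.3, and 2679 and 2492 TPM in Abl.4. The lines did not overlap for Cd79b, whereas Abl.2 and Abl.4 overlapped for Cd79a. Cd79a was higher in Abl.2 than in Abl.3 by 0.32 ± 0.094 (limma adjusted p = 0.036), and its difference of -0.28 ± 0.094 between Abl.3 and Abl.4 missed the threshold (limma adjusted p = 0.054), which it passed with a replicate block, with quantile normalisation and among genes of at least 5 TPM (limma adjusted p = 0.042, 0.021 and 0.048). Cd79b differed in each pair, by 0.25 ± 0.078 for Abl.2 minus Abl.3, -0.29 ± 0.078 for Abl.2 minus Abl.4 and -0.54 ± 0.078 for Abl.3 minus Abl.4 (limma adjusted p = 0.045, 0.030 and 0.0031). With median-ratio scaling the first 2 of these became 0.14 and -0.26 and did not pass (limma adjusted p = 0.23 and 0.051), and neither did Cd79a between Abl.2 and Abl.3, at 0.21 (limma adjusted p = 0.12). On summed allelic counts both genes turned in that pair, and Cd79b between Abl.3 and Abl.4 became -0.07 and did not pass (edgeR adjusted p = 0.59). Cd79a exceeded Cd79b by a ratio of 1.42 ± 0.086 in Abl.2 and 1.35 ± 0.021 in Abl.3, and by 1.14 ± 0.15 in Abl.4 (SD, n = 2), an order that the ratio of summed allelic counts did not show (0.336 to 0.388 over all 6 libraries).

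Blnk, the adaptor that links Syk to phospholipase C and lies on chromosome 19 (40928927 to 40994535), showed the widest separation. It stood at 427 and 443 TPM in Abl.2, 324 and 295 TPM in Abl.3, and 605 and 623 TPM in Abl.4. The order was Abl.3, Abl.2, Abl.4 with no overlap. Abl.2 exceeded Abl.3 by 0.49 ± 0.076 and lay below Abl.4 by a log2 difference of -0.50 ± 0.076 (limma adjusted p = 0.0034 and 0.0036). Abl.3 lay 1.98-fold below Abl.4 (-0.99 ± 0.076, limma adjusted p = 0.00024). Of all genes tested, 10.4% differed more between Abl.3 and Abl.4.

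**Figure D2:**
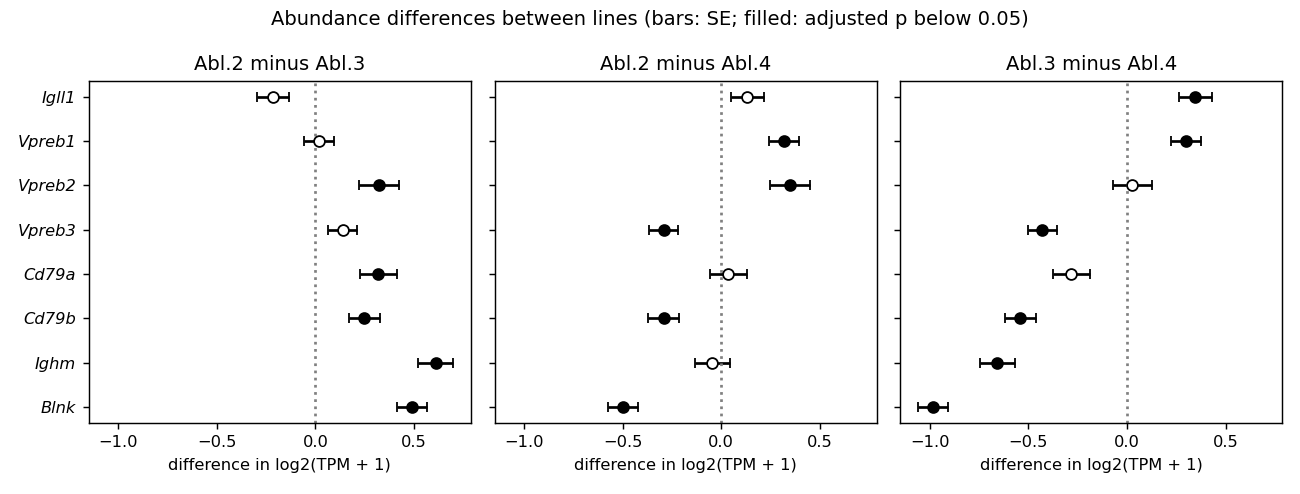
Differences between pairs of lines in log2(TPM + 1) (horizontal axes) for each gene, with bars for the SE and filled points where the adjusted p was below 0.05. Blnk and Ighm lie farthest from 0 among the members on both plots that involve Abl.3.

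Counted by pair, 5 of the 8 members passed the test between Abl.2 and Abl.3, each higher in Abl.2. With median-ratio scaling 3 passed, Blnk and Ighm higher and Igll1 lower in Abl.2, where 4263 of all genes passed. Of 11003 genes, 39.8% passed in either direction, 25.9% higher and 14.0% lower in Abl.2. Between Abl.2 and Abl.4 again 5 passed, 2 higher and 3 lower in Abl.2, where 33.5% of genes passed, 15.0% higher and 18.4% lower. Between Abl.3 and Abl.4, 6 passed, 2 higher and 4 lower in Abl.3, where 38.1% of genes passed, 11.3% higher and 26.8% lower. Not 1 member differed by at least 1 on the log2(TPM + 1) scale of the deposited values in any pair, against 10.5%, 10.1% and 9.47% of all genes, but Blnk came to -1.06 between Abl.3 and Abl.4 with quantile normalisation and to -1.05 and -1.01 without library 1 of Abl.3 or of Abl.4. The median absolute difference of the members was 0.28, 0.29 and 0.39 for the pairs in that order, beside 0.32, 0.28 and 0.31 over all genes tested. The signed medians of the members were 0.28, -0.0046 and -0.36. Leaving out a single library left fewer calls. The share of all genes that passed is not given for these fits, so the counts are not read against it. Between Abl.2 and Abl.3, 2 remained in number without either library of Abl.2 or library 2 of Abl.3, and 3 without library 1 of Abl.3. Between Abl.2 and Abl.4, 1 was left without any 1 library of those lines, and 3 without one of Abl.3. Between Abl.3 and Abl.4, 4 to 5 were left. Blnk passed each time in every pair, as did Ighm in both pairs with Abl.3.

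Several of these abundance differences depended on the scaling. The median of all genes was itself shifted, by 0.10 for Abl.2 minus Abl.3, -0.03 for Abl.2 minus Abl.4 and -0.15 for Abl.3 minus Abl.4. Relative to that shift, the difference of Ighm was 0.51 and -0.51 in the pairs with Abl.3, and that of Blnk was 0.39, -0.47 and -0.84. In the pair Abl.2 minus Abl.3, 65.0% of the called genes were higher in Abl.2, and 51.3% after each library was scaled to the median ratio. For Abl.3 minus Abl.4 the share higher in Abl.3 was 29.8%, and 48.8% after that scaling.

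A second measure of abundance came from the allele table, by adding the maternal and paternal counts of a gene. It gave Blnk the same direction in each pair, at 0.35, -0.54 and -0.90, and all 3 calls were kept (edgeR adjusted p = 0.0057, 0.00045 and 1.3e-05). Between Abl.2 and Abl.3 it gave the opposite direction for Vpreb1, Vpreb2, Vpreb3, Cd79a and Cd79b, at -0.26, -0.36, -0.31, -0.24 and -0.23. For Vpreb2 that was a call in the reverse sense (edgeR adjusted p = 0.016), and Vpreb1 and Vpreb3, which had not passed, passed in that sense (edgeR adjusted p = 0.031 and 0.024). Igll1 between the same lines became a call, at -0.49 (edgeR adjusted p = 0.0013). Between Abl.2 and Abl.4 the direction turned for Igll1, Vpreb1, Vpreb2 and Cd79a, and between Abl.3 and Abl.4 for Vpreb3. Only for Blnk did both tables thus give the same call in each pair, and Ighm could not be compared.

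In Abl.2 and Abl.3 the allelic counts of the most abundant genes differed between libraries otherwise than the library totals did. In Abl.2 the total of library 2 was 1.18 times that of library 1. The median gene between 10 and 100 TPM had 1.20 times the counts (4745 genes), and the median gene of at least 1000 TPM had 1.10 times (95 genes). Vpreb1 had 1.13 times, Vpreb3 1.03 times, Igll1 1.05 times, Cd79b 1.03 times, Vpreb2 0.991 times and Cd79a 0.980 times the counts, whereas Blnk had 1.29 times. In Abl.3 the total ratio was 0.924 and that of the abundant genes 0.992, and in Abl.4 both were 1.00. The part of this in the disagreement between the tables was not tested.

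The alleles of 7 members could be followed at high coverage. Each library held between 10595 (Cd79a) and 62345 (Vpreb3) allelic counts per gene, so that 95% Wilson intervals of the maternal share in a single library reached at most 0.0095 to either side. These intervals cover counting error only, since the reads carry no molecular identifiers. The maternal share is the maternal count over the count of both alleles. None of the 7 genes was silent on an allele: shares ran from 0.159 to 0.556. Departure from equal counts passed the test for 5 genes in Abl.2 (4 toward the paternal allele), 6 in Abl.3 (4 paternal) and 6 in Abl.4 (all paternal), where 49.1%, 45.1% and 39.9% of 8702 genes passed. Over all genes the maternal allele was the lower in 24.4%, 22.6% and 20.7% and the higher in 24.7%, 22.5% and 19.2%, in the same order.

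**Figure D3:**
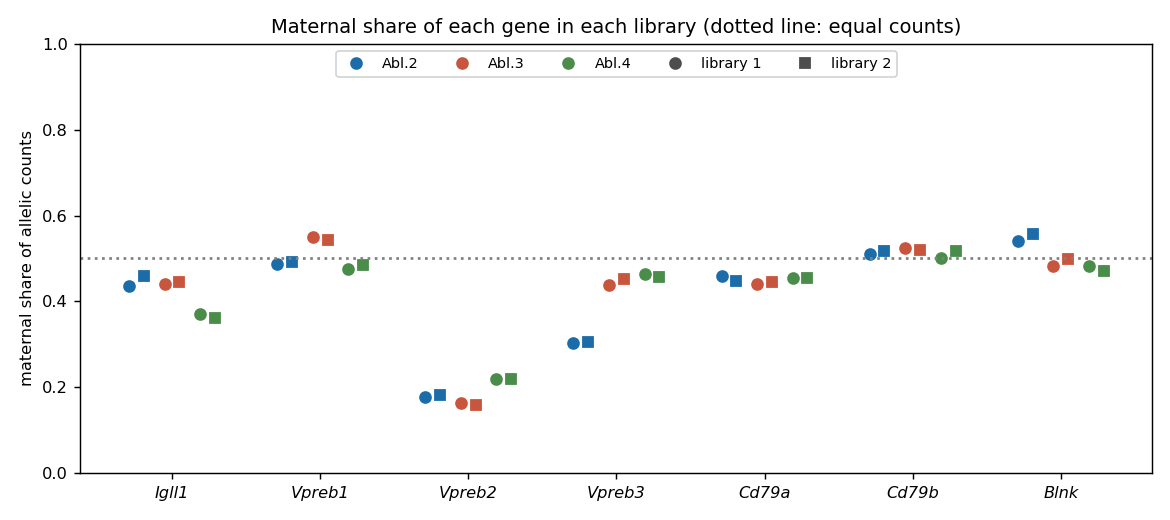
Maternal share of the allelic counts (vertical axis, 0 to 1) of 7 genes in each library, with colours for the lines, circles for library 1 and squares for library 2. Vpreb2 lies between 0.159 and 0.220 in all libraries, and Vpreb3 near 0.30 in Abl.2 alone.

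Vpreb2 came mostly from the paternal chromosome in every line, where parent and strain cannot be told apart. Its maternal share was 0.178 and 0.182 in Abl.2, 0.163 and 0.159 in Abl.3, and 0.220 and 0.219 in Abl.4. The lines did not overlap and Abl.4 was the least skewed. The paternal allele gave 4.56, 5.20 and 3.56 times the maternal counts in Abl.2, Abl.3 and Abl.4 (edgeR adjusted p at most 1.1e-11). In maternal against paternal log2 ratio, Abl.2 differed from Abl.3 by 0.19 ± 0.037, from Abl.4 by -0.36 ± 0.037, and Abl.3 from Abl.4 by -0.55 ± 0.037 (edgeR adjusted p = 0.0022, 2.5e-05 and 1.5e-06). The first of these ended when the allele totals of each library were used as the reference (0.0033, edgeR adjusted p = 0.96). That reference also moved the median of all genes for Abl.2 minus Abl.3, from 0.029 to -0.16. The 38 genes within 1 Mb had a median share of 0.495, 0.506 and 0.489 in the same order. Among 278 other genes of chromosome 16, 12, 4 and 6 had a lower share than Vpreb2.

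Its near copy Vpreb1 was close to balance. By mean share its lines were ordered the other way, but Abl.2 and Abl.4 did not differ detectably. The share was 0.487 and 0.491 in Abl.2, 0.550 and 0.543 in Abl.3, and 0.475 and 0.485 in Abl.4. Abl.3 lay above the other lines and was the 1 line with a maternal excess (0.27 ± 0.027, edgeR adjusted p = 1.8e-05). The log2 ratio of Abl.3 exceeded that of Abl.4 by 0.38 ± 0.038, and that of Abl.2 fell below that of Abl.3 by a difference of -0.33 ± 0.038 (edgeR adjusted p = 3.9e-05 and 4.5e-05). The difference of 0.049 ± 0.038 for Abl.2 minus Abl.4 did not pass (edgeR adjusted p = 0.49) and turned with allele totals as the reference. Added together, the counts of Vpreb1 and Vpreb2 came from the mother at a share of 0.342 ± 0.010 for Abl.2, 0.357 ± 0.0037 for Abl.3 and 0.350 ± 0.0041 for Abl.4 (SD, n = 2). The sum thus varied less between lines than either gene. Whether reads placed on the wrong copy moved the separate shares was not tested.

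Igll1 shifted toward the paternal allele in Abl.4. Its maternal share was 0.436 and 0.458 in Abl.2, 0.442 and 0.446 in Abl.3, and 0.370 and 0.361 in Abl.4. Both libraries of Abl.4 were below all others, and Abl.2 and Abl.3 overlapped. The log2 ratio of Abl.4 was lower than that of Abl.2 by 0.49 ± 0.050 and than that of Abl.3 by 0.47 ± 0.050 (edgeR adjusted p = 2.4e-05 and 6.6e-05). Splitting the TPM by the shares gave a maternal level of 1368 ± 30 TPM in Abl.4 against 1834 ± 52 for Abl.2 and 2116 ± 147 for Abl.3 (SD, n = 2). The paternal level was 2374 ± 13 TPM in Abl.4, within the range of 2269 ± 82 in Abl.2 to 2652 ± 219 in Abl.3. Which allele differed between Abl.2 and Abl.4 depended on the measure. In allelic CPM the maternal level was 486 and 452 in Abl.2 against 463 and 467 in Abl.4, and the paternal level 628 and 534 against 789 and 825, so that these lines overlapped on the maternal side and Abl.4 was higher on the paternal side. The 25 genes within 1 Mb, which Igll1 shares with Vpreb1, had median shares of 0.499, 0.50 and 0.490, so the shift was not seen in the median of the neighbours. In Abl.4, 18 of 278 other genes of chromosome 16 had a lower share than Igll1, against 61 in Abl.2 and 67 in Abl.3.

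**Figure D4:**
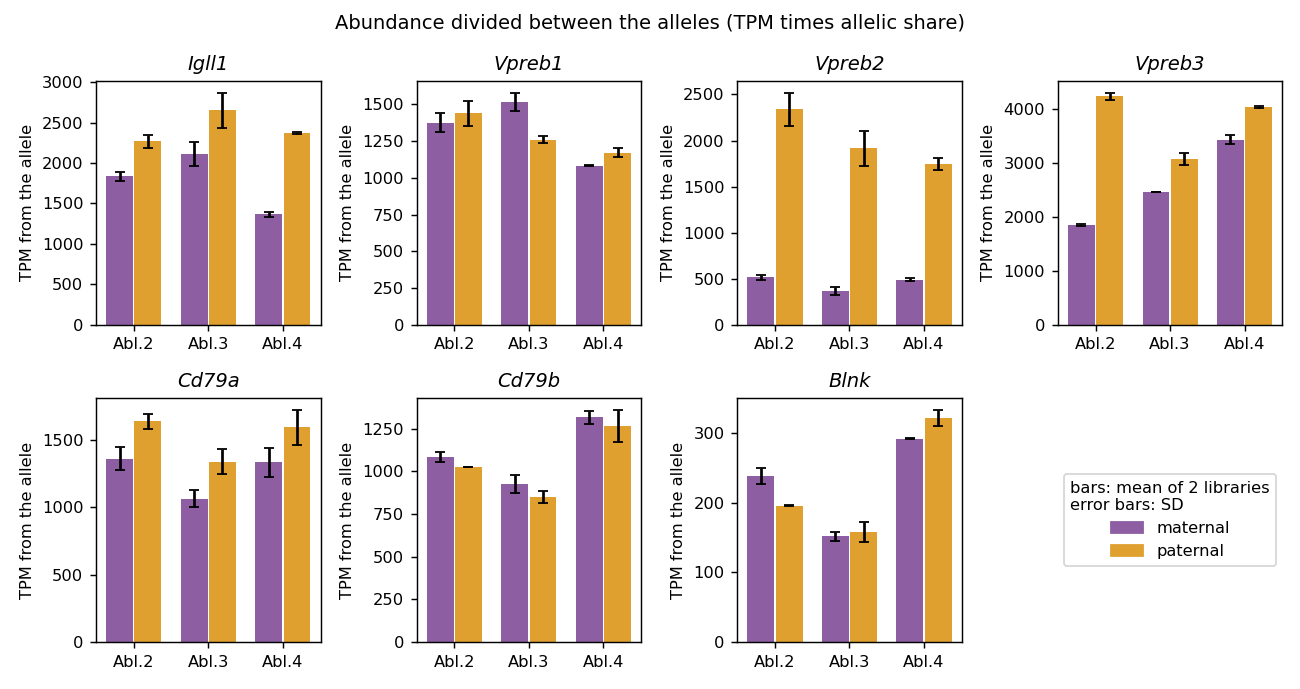
TPM of 7 genes divided between the maternal and the paternal allele by the allelic share (vertical axes, starting at 0), as means of 2 libraries with SD bars. On this TPM scale Igll1 in Abl.4 has 1368 maternal TPM, below the other lines, which in allelic CPM does not hold against Abl.2, and Vpreb3 in Abl.2 has 4231 paternal against 1852 maternal TPM.

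Vpreb3 was skewed toward the paternal allele in Abl.2, together with its chromosome. The maternal share was 0.304 and 0.305 in Abl.2, 0.439 and 0.452 in Abl.3, and 0.463 and 0.457 in Abl.4. Abl.2 lay far below the other lines, which were close to each other without overlap. Its log2 ratio differed from that of Abl.3 by -0.87 ± 0.036 and from that of Abl.4 by -0.96 ± 0.036 (edgeR adjusted p = 6.2e-09 and 3.7e-09). Between Abl.3 and Abl.4 the difference was -0.09 ± 0.035 and did not pass (edgeR adjusted p = 0.15). Over 430 other genes of chromosome 10 the median difference of Abl.2 was -0.99 from Abl.3, with quartiles of -1.18 and -0.82, and -0.98 from Abl.4, with quartiles of -1.13 and -0.81. Vpreb3 lay inside the quartiles in both pairs, and the median share of the chromosome in Abl.2 was 0.337. The 21 genes within 1 Mb had median shares of 0.339, 0.502 and 0.480 for Abl.2, Abl.3 and Abl.4. The maternal level of Vpreb3 was 1852 ± 20 TPM in Abl.2, 2459 ± 5.8 in Abl.3 and 3425 ± 82 in Abl.4, and the paternal level was 4231 ± 64, 3067 ± 108 and 4022 ± 20 TPM (SD, n = 2). In allelic CPM the maternal level was again lowest in Abl.2, at 813 and 708, but Abl.3 (1312 and 1432) and Abl.4 (1345 and 1315) overlapped. The paternal level was then 1864 and 1612 in Abl.2, 1680.1 and 1738 in Abl.3, and 1559 and 1566 in Abl.4, so that Abl.2 and Abl.3 overlapped and Abl.4 was lowest.

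**Figure D5:**
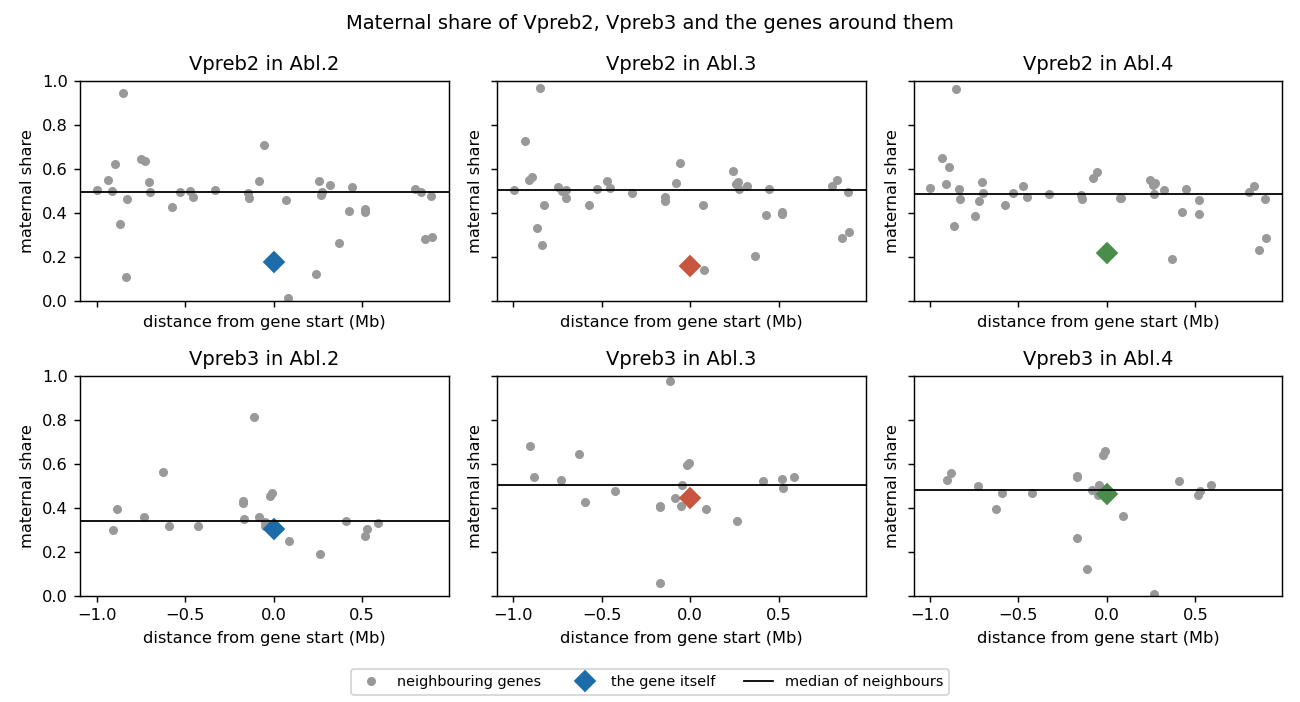
Maternal share (vertical axes, 0 to 1) of Vpreb2 (top) and Vpreb3 (bottom), as diamonds, and of genes that start within 1 Mb (grey), by distance from the gene's start in Mb, with a line at the neighbours' median. Vpreb2 lies far below the line in each clone, whereas Vpreb3 follows its neighbours down to a median of 0.339 in Abl.2.

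The allelic balance of Cd79a and Cd79b did not differ detectably between the clones. Cd79a leaned to the paternal allele in each line, with shares of 0.459 and 0.448 in Abl.2, 0.441 and 0.445 in Abl.3, and 0.455 and 0.456 in Abl.4 (edgeR adjusted p at most 0.00029 per line). Cd79b had shares of 0.510 and 0.518, 0.524 and 0.519, and 0.502 and 0.518 in the same lines, and departed from equal counts in Abl.3 (0.12 ± 0.031, edgeR adjusted p = 0.0083). In no pair of lines did the allele ratio of either gene pass the test. Their differences in log2 ratio lay between -0.07 and 0.06, each with an SE of 0.043 to 0.053. With allele totals as the reference, Cd79b did pass between Abl.2 and Abl.3, at -0.23 (edgeR adjusted p = 0.0017). Within Abl.2 it then passed toward the paternal allele, at -0.083 (edgeR adjusted p = 0.041). That reference moved the median of all genes from 0.029 to -0.16 for Abl.2 minus Abl.3, and from 0.0040 to -0.16 within Abl.2.

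Blnk leaned to the maternal allele in Abl.2. The share was 0.542 and 0.556 in Abl.2, 0.482 and 0.499 in Abl.3, and 0.482 and 0.470 in Abl.4. Abl.2 stood above the other lines, whose nearest libraries were equal to 3 decimals. The log2 ratio of Abl.2 exceeded that of Abl.3 by 0.34 ± 0.053 and that of Abl.4 by 0.42 ± 0.052 (edgeR adjusted p = 0.00048 and 9.4e-05). With allele totals as the reference the first became 0.15 and no longer passed (edgeR adjusted p = 0.051), while the median of all genes moved from 0.029 to -0.16. The maternal level of Blnk was 239 ± 11, 152 ± 6.4 and 292 ± 0.80 TPM and the paternal level 196 ± 0.77, 158 ± 14 and 322 ± 12 TPM in Abl.2, Abl.3 and Abl.4 (SD, n = 2). Both alleles were thus highest in Abl.4 and lowest in Abl.3, in TPM as in allelic CPM. The 19 genes within 1 Mb had median shares of 0.539, 0.536 and 0.552.

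Counted by pair, the allele ratio differed for 4 of 7 members between Abl.2 and Abl.3 (Vpreb1, Vpreb2, Vpreb3 and Blnk), where 28.4% of genes passed, 15.4% with a higher and 13.0% with a lower maternal ratio in Abl.2. It differed for 4 between Abl.2 and Abl.4 (Igll1, Vpreb2, Vpreb3 and Blnk), where 22.3% passed, 12.7% higher and 9.61% lower. Between Abl.3 and Abl.4 it differed for 3 (Igll1, Vpreb1 and Vpreb2), where 16.5% passed, 8.53% higher and 7.93% lower. In the authors' deposited table, the interval of the maternal fraction left out 0.5 in each line for Igll1, Vpreb2, Vpreb3 and Cd79a. It also did so for Blnk in Abl.2 and for Vpreb1 in Abl.3. A limit printed as 0.5 was taken as holding it. The share of all genes whose interval left out 0.5 is not given here. The authors' deposited table gave Vpreb2 fractions of 0.18, 0.16 and 0.22, and Igll1 fractions of 0.45, 0.44 and 0.37.

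Some genes that work around the receptor differed between the lines by at least 1 on the log2 scale. For all list counts that follow, the share of all genes that passed was 39.8%, 33.5% and 38.1% in the 3 pairs, with 25.9%, 15.0% and 11.3% higher and 14.0%, 18.4% and 26.8% lower in the first line. Of 20 genes of signalling below the receptor, 11 passed in each pair of lines: 7 higher and 4 lower for Abl.2 minus Abl.3, 3 and 8 for Abl.2 minus Abl.4, and 1 and 10 for Abl.3 minus Abl.4. Their median difference was 0.10, -0.20 and -0.48, beside 0.10, -0.03 and -0.15 over all genes tested, and 4, 3 and 2 of them differed by at least 1, as did 10.5%, 10.1% and 9.47% of all genes. Blk, a Src-family kinase, was the clearest, at 2.89 and 2.93 TPM in Abl.2, 31.0 and 29.1 TPM in Abl.3, and 194 and 182 TPM in Abl.4 (limma adjusted p at most 1.6e-05). Of 15 tested recombination and stage markers 12, 11 and 12 passed for the same pairs, of which 7, 3 and 2 were higher in the first line, with medians of 0.19, -0.41 and -1.07. Cd2, an adhesion molecule, was at 1.11 and 1.27 TPM in Abl.2, 7.46 and 6.20 TPM in Abl.3, and 288 and 291 TPM in Abl.4. Enpep, the peptidase known as BP-1 antigen, averaged 48.0 TPM in Abl.2 and 147 TPM in Abl.3 (limma adjusted p = 2.1e-05). Of 21 transcription factors of the stage, 14, 11 and 13 passed, of which 11, 6 and 3 were higher in the first line, with medians of 0.28, -0.03 and -0.15. Id3, an inhibitor of E proteins, was lower in Abl.4 (113 and 99.98 TPM) than in Abl.2 (455 and 457 TPM), and Spib, an ETS factor, was higher in Abl.3 (40.9 and 34.8 TPM) than in Abl.2 (8.86 and 7.95 TPM).

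Lgals1 encodes galectin-1, a stromal ligand known to bind the surrogate light chain, and was listed with 9 chaperones of chain assembly. It stood at 2.80 and 3.91 TPM in Abl.2, 416 and 483 TPM in Abl.3, and 127 and 128 TPM in Abl.4, the clones being far apart (limma adjusted p at most 0.00024). Of the 10 genes in this list 4, 6 and 3 passed (40%, 60% and 30%, against 39.8%, 33.5% and 38.1% of all genes), 2, 4 and 2 of them higher in the first line of the pair, and the medians were 0.01, 0.13 and 0.07. Of the other immunoglobulin constant genes, 3 were abundant enough to test, and 3, 3 and 2 passed, with medians of 0.93, 1.01 and 1.43. These genes are related in sequence, and the counting could have split reads between them. Igkc, the kappa light chain, was at 303 and 278 TPM in Abl.2, 43.2 and 83.9 TPM in Abl.3, and 24.4 and 19.3 TPM in Abl.4, well below Igll1 in each line. Ighg2b, a switched heavy chain, was at 123 and 117 TPM in Abl.3 and at most 3.48 TPM in the other lines (limma adjusted p = 1.6e-06 and 7.4e-06). Over the 69 genes of these 5 lists that were tested, 44, 42 and 41 passed for the 3 pairs in that order, 29, 18 and 10 of them higher and 15, 24 and 31 lower in the first line, against 39.8%, 33.5% and 38.1% of all genes in either direction.

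The genes whose profile over the 6 libraries was most like that of a member were found by the root mean square difference of centred log2(TPM + 1) values among 11003 genes. For Ighm they were Tap2 (0.017), Coro7 (0.030) and Disp1 (0.030). For Blnk they were Wdr90 (0.045), Swap70 (0.047) and Syk (0.050). Syk, the kinase that acts on Blnk, stood at 141 and 142 TPM in Abl.2, 102 and 98.5 TPM in Abl.3, and 182 and 196 TPM in Abl.4. For Vpreb3 they were Alg8 (0.020), Iars (0.021) and Siah1a (0.025), and for Igll1 Pycrl (0.027), Pgam5 (0.032) and Gpn3 (0.032). For Vpreb1 they were Tmem192 (0.026), Slc25a45 (0.030) and Tmem219 (0.032), and for Vpreb2 Wdr3 (0.039), Ighmbp2 (0.041) and Cmtm6 (0.041). For Cd79a they were Azin1 (0.028), Gga1 (0.034) and Arih2 (0.034), and for Cd79b Pik3cg (0.034), Ctsa (0.035) and Ttf2 (0.042). No member was among the nearest genes of another.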

How the data were processed

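RNA-seq of 6 libraries, 2 for each of 3 lines, was analysed from the deposited tables. The authors' abundance table is in TPM, for which the header names DESeq2. The deposited allele table holds whole-number counts of the maternal and paternal allele at SNPs within a gene, per the file headers. Another deposited table gives a maternal fraction for each line, with its limits, from averaged replicates, per the file headers. STAR 2.5.4a, SAMtools, GATK, DESeq2 and the builds GRCm38, GRCh37 and mm10 are named in the submitters' processing notes without a role. Of 35448 genes, 98.5% had the same start in GENCODE M21 (GRCm38), as did all 8 members, so coordinates are on that build.

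Groups follow the line named in the sample titles. For abundance, log2(TPM + 1) values of the 11003 genes averaging 1 TPM or more entered limma 3.58.1 (lmFit, then eBayes with a trend), all 6 libraries in 1 fit. This scale understates changes of low genes. Allelic counts were tested with edgeR 4.0.16 (quasi-likelihood, a library intercept and an allele effect per line, equal library size for both alleles) for 8702 genes with at least 20 counts in every library. P-values were adjusted by Benjamini-Hochberg over all genes of a comparison, with a threshold of 0.05. Levels per allele are TPM multiplied by the allelic share. The scripts were tested on simulated data. Alternatives included DESeq2 1.42.0, other filters, scalings, a replicate block and leaving out each library (R 4.3.3).

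The members and the gene lists were chosen with earlier results of these data known. 1 gene of the lists is not reported here. Genes of the pathway lists were named where they had the smallest p-value of their list in a pair of lines among genes of at least 5 TPM in 1 line, and other genes by likeness of profile. Igkc, Syk, Top3b and Gm16221 were named because a member's value bears on them. Single cell type markers and Ighv genes were named outside this rule, after their values were seen. RefSeq promoters (GRCm38.p6) matched 6 of the 8 members, all but Cd79b and Ighm. The share or number of all genes that passed a test is given with the members' counts, with some exceptions. These are fits with a library left out, summed allelic counts, allelic calls with a replicate block and the members whose allele ratio differed in any pair.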

Additional observations from a re-analysis of the deposited data

Results flagged for a closer look

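The effect of the allele (log2 of maternal over paternal counts) differed between lines for 5 of the 7 members in at least 1 pair. This rests on the edgeR test of the difference itself. How many of the 8702 genes tested differed in at least 1 pair is not given here, so the 5 are not read against it. In the single pairs, taken in the order below, 28.4%, 22.3% and 16.5% of those genes passed. Between Abl.2 and Abl.3 the difference was -0.33 for Vpreb1, 0.19 for Vpreb2, -0.87 for Vpreb3 and 0.34 for Blnk. Between Abl.2 and Abl.4 it was 0.49 for Igll1, -0.36 for Vpreb2, -0.96 for Vpreb3 and 0.42 for Blnk. Between Abl.3 and Abl.4 it was 0.47 for Igll1, 0.38 for Vpreb1 and -0.55 for Vpreb2. The differences of Vpreb3 lay near those of chromosome 10, whose median was -0.99 and -0.98 in the same pairs, while chromosome 16 had medians of 0.01, 0.04 and 0.03 in the 3 pairs. No group had the 4 samples that a test for outlying libraries needs.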

How the results depend on the processing

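Calls by line for alleles were steadier than calls for abundance. Leaving out each library in turn left 2 to 4 of the abundance calls of members between Abl.2 and Abl.3, 1 to 3 between Abl.2 and Abl.4 and 4 to 5 between Abl.3 and Abl.4; the lone library is then assumed to vary like the others. The same step left 4, 4 and 3 allelic differences, as with all libraries, and 5 to 6 imbalances per line. Blnk passed in each pair in 15 of 16 settings and Ighm against Abl.3 in 13 of 14, both failing only where a change of at least 1 was asked for, which left 0, 0 and 0 calls. With no filter on low values the first pairs had 2 and 1 calls, where 3422 and 3000 of 37315 genes passed. Many genes then had no variance, so that fit is unreliable. Median-ratio scaling gave 3 between Abl.2 and Abl.3, where 4263 of 11003 genes passed. Of the 3, Blnk and Ighm were among the 5 of the main fit and Igll1 was not. Summed allelic counts gave 3 calls for Abl.2 minus Abl.4 (edgeR) and 1 for Abl.3 minus Abl.4 (edgeR and DESeq2). The share of all genes that passed in those fits is not given here, so these counts are not read against it.

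Directions turned on the summed allelic counts as follows, edgeR first and DESeq2 second. For Abl.2 minus Abl.3 they were -0.31 and -0.31 for Vpreb3, -0.23 and -0.24 for Cd79b, -0.26 and -0.26 for Vpreb1, -0.36 and -0.36 for Vpreb2, and -0.24 and -0.25 for Cd79a. For Abl.2 minus Abl.4 they were -0.27 and -0.27 for Igll1, -0.051 and -0.048 for Vpreb1, -0.20 and -0.19 for Vpreb2, and -0.28 and -0.28 for Cd79a. For Abl.3 minus Abl.4 they were 0.10 and 0.11 for Vpreb3. Quantile normalisation turned Ighm for Abl.2 minus Abl.4 (0.16) and Vpreb2 for Abl.3 minus Abl.4 (-0.029), and median-ratio scaling turned Vpreb1 for Abl.2 minus Abl.3 (-0.093). Over left-out libraries, differences that had not passed spanned 0: Vpreb1 for Abl.2 minus Abl.3 (-0.036 to 0.073), Cd79a and Ighm for Abl.2 minus Abl.4 (-0.046 to 0.12 and -0.11 to 0.018) and Vpreb2 for Abl.3 minus Abl.4 (-0.076 to 0.13). Ratios taken on summed allelic counts, a comparison added after seeing the data, turned in log2 for Vpreb1 over Vpreb2 in the pairs with Abl.2 (0.11 for Abl.2 minus Abl.3 and 0.15 for Abl.2 minus Abl.4) and for Cd79a over Cd79b for Abl.2 minus Abl.3 (-0.013). The cause was not tested.

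With allele totals as the reference, 5 allele effects that had not passed turned. They were Cd79b in Abl.2 (-0.083) and, for Abl.2 minus Abl.3, Igll1 (-0.17) and Cd79a (-0.13). For Abl.2 minus Abl.4 they were Cd79b and Vpreb1 (-0.12 and -0.090). Of these, Cd79b in Abl.2 and Igll1 then passed (edgeR adjusted p = 0.041 and 0.023). That reference moved the median of all genes from 0.0040 to -0.16 in Abl.2. For Abl.2 minus Abl.3 it moved from 0.029 to -0.16, and for Abl.2 minus Abl.4 from 0.0012 to -0.14. Over left-out libraries Igll1 spanned -0.047 to 0.084 for Abl.2 minus Abl.3, and Cd79a and Cd79b spanned -0.040 to 0.019 and -0.024 to 0.069 for Abl.2 minus Abl.4. Coverage minimums of 10 and 50 and DESeq2 changed no difference call of a member.

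Neighbours within 3 Mb in place of 1 Mb moved some median shares by more than the spread of libraries. In Abl.2 they became 0.490 around Igll1 and Vpreb1, 0.329 around Vpreb3, 0.492 around Cd79a, 0.493 around Cd79b, 0.528 around Ighm and 0.533 around Blnk. In Abl.3 they became 0.492 around Vpreb2, 0.491 around Vpreb3, 0.501 around Cd79a, 0.496 around Cd79b and 0.509 around Blnk, and in Abl.4 0.495 around Cd79a, 0.527 around Ighm and 0.523 around Blnk.

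Lines share replicate numbers, but the labels do not pair libraries across lines. Deviations of same-numbered libraries correlated at 0.10, 0.19 and 0.16 for abundance and at -0.01, -0.06 and 0.02 for maternal share. With a replicate block, 6, 5 and 7 members were called for abundance (5213, 4608 and 5184 of all genes), with Igll1 for Abl.2 minus Abl.3 and Cd79a for Abl.3 minus Abl.4 added, and allelic difference calls stayed at 4, 4 and 3.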

Other observations

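Variable genes of the heavy chain, which the mu chain carries once rearranged, were low beside Ighm. The TPM of 108 Ighv genes summed to 486 and 428 in Abl.2, 119 and 99.3 in Abl.3, and 223 and 195 in Abl.4. No single Ighv gene took more than 39.9% of the sum in a library. Ighv14-2 was the highest in 5 of 6 libraries and Ighv2-9 in library 1 of Abl.3, where Ighv2-9 stood at 38.3 and 26.7 TPM in Abl.3 against at most 1.95 TPM in Abl.2 and 0 in Abl.4. Ighv5-2 stood at 129 and 118 TPM in Abl.2, 6.05 and 5.93 TPM in Abl.3, and 44.2 and 54.5 TPM in Abl.4. The 102 Igkv genes summed to between 103 and 177 TPM with no order among the lines. These values were not tested.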
